A study of Rattus norvegicus with 84 samples.

Results

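The comparison described here sets 7 cocaine libraries from the Ctx condition against 7 cocaine libraries from the HC condition, all from the nucleus accumbens shell of the rat. Libraries were taken by their titles (Shell with Ctx_Coc, Shell with HC_Coc), which gave 14 of the 84 libraries of the series. All rats were wild-type Long-Evans rats, and both groups had received cocaine (Coc). In this field Ctx and HC commonly stand for exposure to the drug context and for the home cage; the labels do not spell them out. They also give no dose, no time since the last exposure, no age and no sex, and leave unsaid whether 2 libraries of a group could share a rat. The p-values therefore cover only the variation among these libraries. The study looked at transcripts of the accumbens core and shell after different forms of cocaine abstinence. Saline rats of the same conditions (Ctx_Sal, HC_Sal) and the same cocaine groups in the core were used for differences between contrasts.

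The nucleus accumbens shell is the medial part of the ventral striatum. Most of its neurons are GABAergic projection neurons that carry the dopamine receptor D1 or D2. When such neurons are driven by glutamate and dopamine, calcium and cAMP signalling act through CREB and serum response factor on a set of immediate early genes, which are transcribed within minutes without new protein synthesis. Their products include transcription factors (Fos, Egr and Nr4a families), phosphatases that end MAP kinase signalling, and synaptic proteins such as Arc and Homer1. Levels of these transcripts are widely used as a record of recent neuronal activity.

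The labelled tissue was checked against striatal genes in FPKM, a level per length of the gene. Drd1, which encodes the D1 receptor, had 14.9 ± 2.98 FPKM in Ctx_Coc and 15.6 ± 2.71 in HC_Coc, and Ppp1r1b, the projection neuron phosphoprotein DARPP-32, had 36.8 ± 9.94 FPKM in Ctx_Coc and 39.9 ± 7.53 in HC_Coc (SD, n = 7 each). Penk, the enkephalin precursor of D2-type neurons, had 33.2 ± 8.58 FPKM in Ctx_Coc and 32.5 ± 5.38 in HC_Coc. Slc17a7, the vesicular glutamate transporter of cortical neurons, was at 0.743 ± 0.551 FPKM in Ctx_Coc and 2.31 ± 2.66 in HC_Coc. Other striatal genes were lower than those above. In HC_Coc, Drd2 (2.11 FPKM), Tac1 (1.92) and Drd3 (0.558) lay below Slc17a7, and Adora2a (3.01) and Pdyn (4.61) above it. In Ctx_Coc, only Drd3 (0.598) of these lay below it. The lengths behind FPKM differ widely (4532 bases for Drd1, 63986 for Drd2), so levels of different genes do not compare directly. The libraries were of similar depth, with 15.1 to 19.3 M (mega) counts in Ctx_Coc and 15.7 to 20.1 M in HC_Coc (exact permutation test over 3432 arrangements, two-sided, p = 0.888).

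1 library stood apart. In HC_Coc 6-F, 1383 olfactory and vomeronasal receptor genes, which brain tissue is not thought to express at a notable level, summed to 82.4 CPM (counts scaled so that libraries of unequal depth compare), whereas the other 13 libraries lay between 576 and 1174. This sum, used as a measure of background reads, ran from 735.8 to 1174 CPM with a median of 848.3 in Ctx_Coc. In HC_Coc it ran from 82.4 to 1034 CPM with a median of 646.5. The groups overlapped, and the difference of 0.76 on the log2 scale had an exact two-sided permutation p of 0.0286 (0.0857 after Benjamini-Hochberg adjustment over 3 library measures). Within the 3 series named in the titles the difference was 0.44 (series 3), 0.20 (series 4) and 1.90 (series F, which holds 6-F). Beside the fit with the series as covariate, results are therefore also given without HC_Coc 6-F or with the background level as a further covariate.

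No gene of 30911 tested passed an adjusted p of 0.05 between Ctx_Coc and HC_Coc (0% called; edgeR's quasi-likelihood test). At an unadjusted p under 0.05 there were 4922 genes (15.9%), of which 2252 (7.29%) had higher and 2670 (8.64%) lower estimates in Ctx_Coc. This number depended strongly on single libraries and on the background. It was 1117 without HC_Coc 6-F, 1772 without Ctx_Coc 18-F, 2949 without Ctx_Coc 3-15, 3109 without Ctx_Coc 20-F, 10384 without HC_Coc 14-F, and 832 with the background covariate. DESeq2's Wald test called 3 genes (0.00971%): Fos at a log2 fold change of -1.02, the transfer RNA gene Trnm at -1.66, and Ephx3 at 3.00, each with an adjusted p of 0.0359. Of these, Ephx3, an epoxide hydrolase named only after its values were seen, had 98.7 CPM in Ctx_Coc 3-15, between 1.37 and 2.40 CPM in the other Ctx_Coc libraries, and 0.0802 to 1.98 CPM in HC_Coc.

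5 of the 10 named genes of lowest p with lower estimates in Ctx_Coc were immediate early genes. Fos, a subunit of the transcription factor AP-1, had 3.97, 5.84 and 11.0 CPM (lowest, median and highest) in Ctx_Coc, against 6.92, 12.2 and 22.0 CPM in HC_Coc. The highest value of all was that of HC_Coc 6-F and the lowest HC_Coc value that of 4-7, which 3 Ctx_Coc libraries exceeded, so the groups overlapped. The log2 fold change of Fos was -0.97 ± 0.21 SE (adjusted p = 0.294, unadjusted p = 4.63e-05, edgeR). Per length of the gene, Fos was at 2.40 ± 0.72 FPKM in Ctx_Coc and 4.02 ± 0.999 in HC_Coc (SD, n = 7 each).

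Fosl2, another AP-1 subunit, had 18.1, 21.6 and 30.5 CPM in Ctx_Coc, against 23.3, 37.5 and 48.0 CPM in HC_Coc. Apart from HC_Coc 4-7, every HC_Coc library lay above every Ctx_Coc library. Its log2 fold change was -0.58 ± 0.13 SE (unadjusted p = 8.6e-05; adjusted p = 0.294, edgeR). Fosb, whose truncated product accumulates in the striatum under repeated cocaine, had 3.47, 6.27 and 8.25 CPM in Ctx_Coc, against 6.20, 9.62 and 13.7 CPM in HC_Coc. Here too 4-7 was the one HC_Coc library within the Ctx_Coc range, and the fold change was -0.62 ± 0.16 SE. Junb, a Jun-family partner, had 12.0, 17.1 and 27.1 CPM in Ctx_Coc, against 17.8, 31.5 and 47.3 CPM in HC_Coc, with 4-7 and 14-F as the HC_Coc libraries inside the Ctx_Coc range.

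Of the orphan nuclear receptors of the Nr4a family, Nr4a1 and Nr4a3 overlapped between the groups only through HC_Coc 4-7. Nr4a1 had 18.6, 23.8 and 37.6 CPM in Ctx_Coc, against 24.9, 38.7 and 69.4 CPM in HC_Coc. Nr4a3 had 22.2, 27.4 and 43.8 CPM in Ctx_Coc, against 32.7, 52.7 and 81.9 CPM in HC_Coc. For both genes all HC_Coc libraries except 4-7 lay above the highest Ctx_Coc library, which was 3-14. The log2 fold changes were -0.71 ± 0.18 SE for Nr4a1 and -0.77 ± 0.20 SE for Nr4a3 (adjusted p = 0.294 for each, edgeR). Nr4a2, which dopamine neurons need for their identity, was at -0.41 ± 0.26 SE, and its ranges overlapped widely (4.47 to 7.46 CPM in Ctx_Coc, against 3.53 to 12.7 CPM in HC_Coc). Its high HC_Coc libraries were 3-8 (10.8 CPM), 3-9 (10.2) and 4-9 (12.7), and the others lay between 3.53 and 6.56 CPM. The same libraries were the high ones for Slc17a7 (56.0, 46.6 and 87.3 CPM). A part of cortical tissue in the Nr4a2 value was not tested.

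Btg2, an antiproliferative gene that responds to growth factors and activity, had 2.77, 3.19 and 5.13 CPM in Ctx_Coc, against 4.28, 5.12 and 12.3 CPM in HC_Coc. 6 of the 7 Ctx_Coc libraries lay below every HC_Coc library, the exception being 3-14. Its log2 fold change was -0.89 ± 0.22 SE (adjusted p = 0.294, edgeR). Arc, a capsid-like synaptic protein whose mRNA travels to active dendrites, had 19.0, 31.9 and 59.6 CPM in Ctx_Coc, against 29.4, 59.5 and 93.2 CPM in HC_Coc, a fold change of -0.80 ± 0.27 SE. Egr1, a zinc-finger factor, had 16.4, 25.0 and 40.7 CPM in Ctx_Coc, against 26.1, 36.9 and 75.0 CPM in HC_Coc, and its fold change was -0.60 ± 0.24 SE. The ranges of Arc and Egr1 overlapped over more libraries than those of Fosl2 or Nr4a3.

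**Figure D1:**
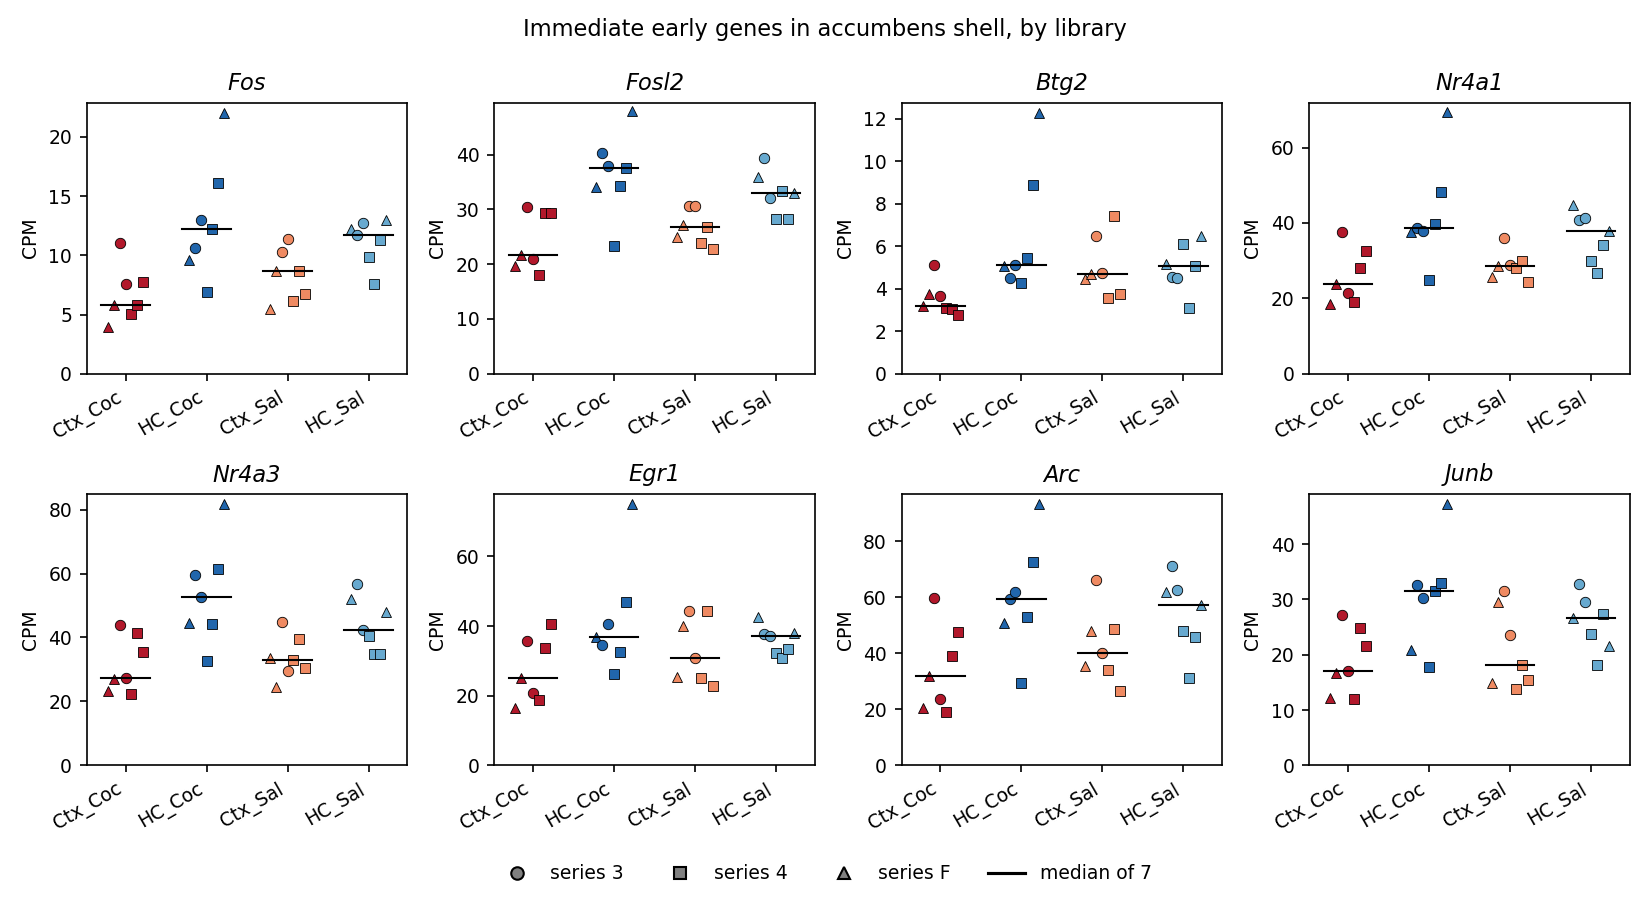
CPM of 8 immediate early genes (vertical axes, from 0) in each Shell library of Ctx_Coc, HC_Coc, Ctx_Sal and HC_Sal (horizontal axes); symbols mark the series and bars the median of 7 libraries. The Ctx_Coc medians lie below the HC_Coc medians for each gene shown (Fos 5.84 against 12.2), with HC_Coc 6-F as the highest point (22.0 for Fos).

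In the order of the libraries, HC_Coc 4-7, with the lowest HC_Coc value of Fos, Fosl2, Fosb, Junb, Nr4a1, Nr4a3, Arc and Egr1, had the highest receptor background of that group (1034 CPM). HC_Coc 6-F, with the highest value of each, had the lowest (82.4 CPM). Among Ctx_Coc libraries 3-14 had the highest Fos, Arc and Nr4a1 and the lowest background (735.8 CPM). In these 3 libraries, which were picked out, high values of the genes stood beside low background and low values beside high background. Ctx_Coc 18-F went the same way (background 1174 CPM, Fos 3.97). HC_Coc 4-9 (background 720.9 CPM, Fos 16.1) and 3-8 (background 576 CPM, Fos 10.6) did not. The order over all libraries was not tested. Estimates with a background covariate are given beside those of the fit as reported.

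Of 28 immediate early genes tested, 25 had lower and 3 higher estimates in Ctx_Coc, 0 passed the adjusted threshold, and the median log2 fold change was -0.52, beside 0.06 for all genes tested. Over all genes tested, 45.0% had lower and 55.0% higher estimates. These shares stand beside the direction counts of every list in this contrast. 18 of the 28 had an unadjusted p under 0.05 in the lower direction, where 8.64% of all genes did, and 0 in the higher direction. For 0 of the 28 were the groups of 7 without overlap, where 75 of all 30911 genes (0.243%) had groups without overlap. The 3 genes with higher estimates were Bdnf, the neurotrophin (0.22 ± 0.25 SE), Dusp5, a nuclear MAP kinase phosphatase (0.24 ± 0.14 SE), and Fosl1, an AP-1 subunit (0.08 ± 0.12 SE). Bdnf was at 1.20 CPM in HC_Coc 6-F and between 7.91 and 11.2 CPM in the other HC_Coc libraries, so its estimate rested on that library; it was 0.03 ± 0.21 SE without it. Among the others, Dusp1, the MAP kinase phosphatase, was at -0.73 ± 0.24 SE, Egr2 at -0.61 ± 0.18, Homer1, a scaffold of metabotropic glutamate receptors, at -0.54 ± 0.19, and Npas4, a factor induced by calcium entry, at -0.43 ± 0.18.

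The direction was the same in each series. 24 of the 28 genes were lower in Ctx_Coc in series 3 (2 libraries a group), 25 in series 4 (3 a group) and 25 in series F (2 a group), with median differences of -0.42, -0.29 and -0.98 log2 CPM. Fos differed by -0.36, -0.84 and -1.58, and Fosl2 by -0.62, -0.31 and -0.96. The largest differences were thus those of series F, which contains HC_Coc 6-F. Without that library the list's median was -0.42, with 25 genes lower and 13 at an unadjusted p under 0.05 (1.39% of all genes in that direction). Without the whole F series the median was -0.37, with 26 lower and 7 at that p (2.02% of all genes). Leaving out other libraries one at a time gave medians of -0.45 to -0.61 and 13 to 21 genes at that p. The number over all genes at that p, in either direction, also moved widely in these fits. It reached 10384 without HC_Coc 14-F, beside 4922 (15.9%) with all libraries. The 13 to 21 genes are therefore not set against 1 fixed share.

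With the background covariate the median was -0.26, 25 of 28 genes were lower, and 7 had an unadjusted p under 0.05, where 1.1% of all genes had a lower estimate at that p. The lowest estimates in that fit were those of Fos (-0.61 ± 0.16 SE), Btg2 (-0.59 ± 0.20), Nr4a3 (-0.57 ± 0.18), Nr4a2 (-0.52 ± 0.27), Arc (-0.45 ± 0.22), Nr4a1 (-0.43 ± 0.15), Fosb (-0.42 ± 0.14) and Fosl2 (-0.42 ± 0.11). Their adjusted p was 1 (edgeR). With 2 surrogate variables in its place the median was -0.27, with 9 genes at an unadjusted p under 0.05, all lower (1.66% of all genes). With the background covariate Bdnf turned to -0.16 ± 0.14 SE and Jund to 0.12 ± 0.14 SE, while Jun was at -0.08 ± 0.14 SE and Per1 at -0.02 ± 0.09 SE. The genes of the list therefore did not shift alike when the background was added. Jun and Per1 lay near 0, whereas Fos, Btg2, Nr4a1 and Nr4a3 did not.

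**Figure D2:**
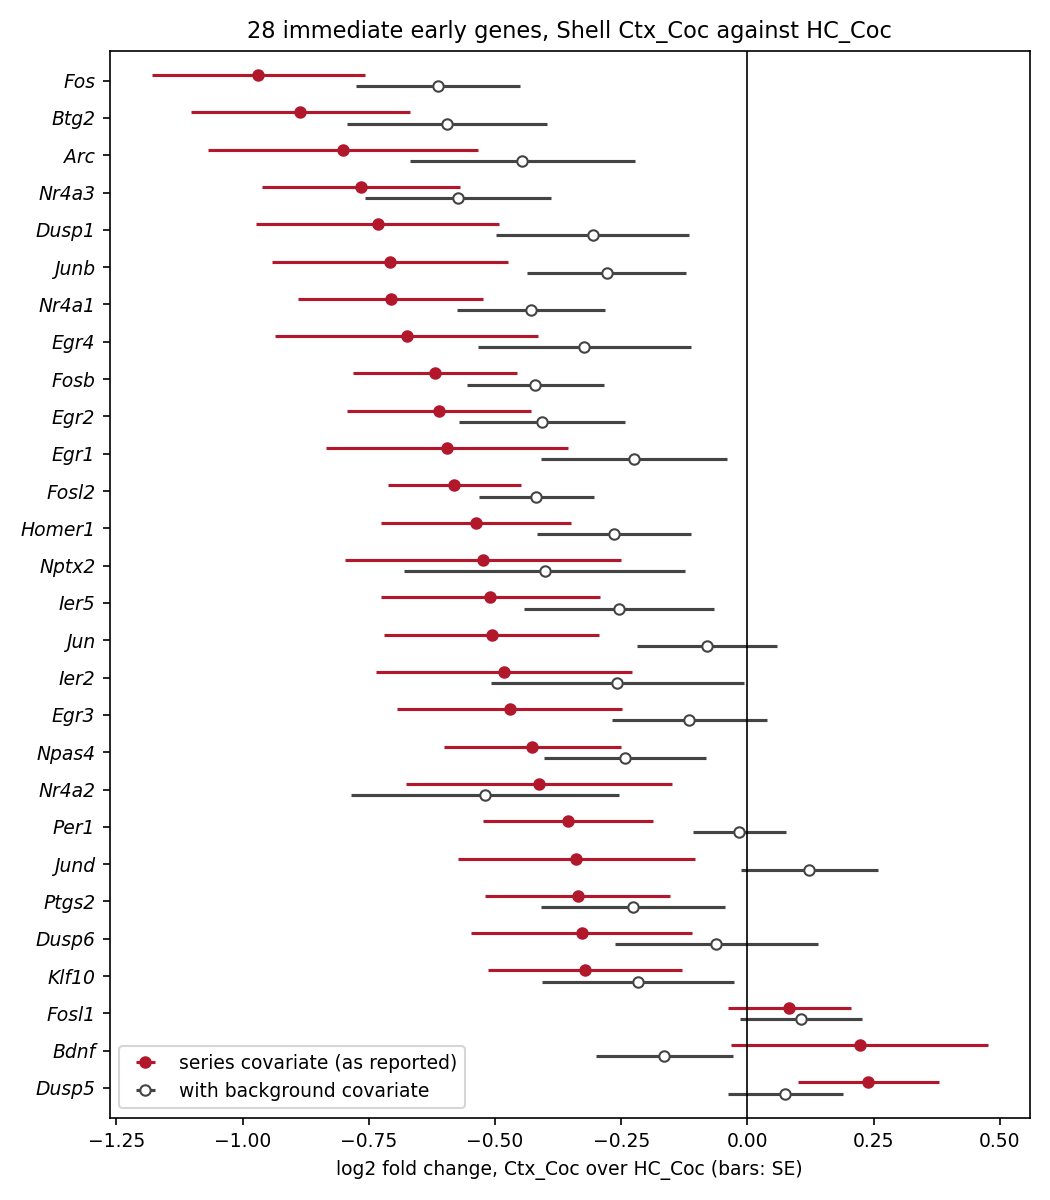
Log2 fold change of Ctx_Coc over HC_Coc (horizontal axis, bars are SE) for each of 28 immediate early genes (vertical axis), with the series covariate (filled) and with the background level as a further covariate (open). 25 genes lie below 0 in each fit, and the open points are nearer to 0 for most genes (Fos -0.97 filled and -0.61 open).

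Promoter sequences from RefSeq (rat build GRCr8, 250 bases before to 50 after the annotated start) were matched to 22 of the 28 genes by symbol; Fos, Arc, Egr3, Jun, Klf10 and Nr4a3 had no entry. They are shown because CREB and serum response factor are the textbook inputs of these genes. The core of the cAMP response element, TGACG on either strand, was found in 14 of the 22, where 22.0% of 27457 promoters held it. That share took a single window per gene. Bdnf had several windows and was counted through a match in the window at chr3:116637608-116637907, not in its first. The full palindrome TGACGTCA, which contains that core on each strand, was found in 4 (Btg2, Dusp1, Ier2 and Jund) beside 1.91% of all promoters. The CArG box of serum response factor was found in 3 (Dusp5, Egr1 and Egr2) beside 1.64%. Fosl2 and Fosb held none of these letters in the window. The sequences printed are those of Btg2 (chr13:48087641-48087940, minus strand), Nr4a1 (chr7:134259888-134260187, plus strand) and Egr2 (chr20:21054392-21054691, minus strand), with capitals on the cAMP response element letters and, in Egr2, also on the CArG box that precedes them.
Btg2: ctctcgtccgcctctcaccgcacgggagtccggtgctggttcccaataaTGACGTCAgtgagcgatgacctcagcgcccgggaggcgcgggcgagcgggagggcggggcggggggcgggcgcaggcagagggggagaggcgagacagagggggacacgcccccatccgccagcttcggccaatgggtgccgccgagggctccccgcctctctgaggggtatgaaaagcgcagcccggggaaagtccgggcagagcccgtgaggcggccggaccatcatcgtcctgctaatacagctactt
Nr4a1: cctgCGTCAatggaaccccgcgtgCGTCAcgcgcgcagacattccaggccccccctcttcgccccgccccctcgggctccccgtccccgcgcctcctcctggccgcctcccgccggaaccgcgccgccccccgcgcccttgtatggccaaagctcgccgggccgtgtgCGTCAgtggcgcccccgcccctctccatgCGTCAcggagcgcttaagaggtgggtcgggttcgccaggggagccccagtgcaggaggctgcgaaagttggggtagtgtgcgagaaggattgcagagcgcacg
Egr2: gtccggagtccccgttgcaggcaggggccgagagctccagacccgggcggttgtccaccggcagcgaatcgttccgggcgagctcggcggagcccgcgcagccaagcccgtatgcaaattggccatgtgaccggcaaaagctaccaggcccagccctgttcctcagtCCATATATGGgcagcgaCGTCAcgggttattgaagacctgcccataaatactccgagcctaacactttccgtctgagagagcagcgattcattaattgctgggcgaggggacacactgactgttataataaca
The palindrome of Btg2 stands alone, Nr4a1 holds the core 4 times, and Egr2 has 1 core downstream of its CArG box. In Egr2 the box starts at -83 and the core at -66 relative to the annotated start. A match of letters is a description of the sequence only.

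In saline rats the same list lay closer to 0. For Ctx_Sal against HC_Sal, 19 of 28 genes had lower estimates with a median of -0.12, and 3 (Fos, Fosb and Fosl2, all lower) had an unadjusted p under 0.05, where 1.55% of all genes did. Fos had 5.51, 8.70 and 11.4 CPM in Ctx_Sal, against 7.57, 11.7 and 13.0 CPM in HC_Sal, a log2 fold change of -0.46 ± 0.21 SE (adjusted p = 1, edgeR). In that contrast 0 genes passed adjustment with edgeR or DESeq2. Beside these values, cortical markers had a median of 0.37 in the saline contrast (2 of 13 lower, 6 at an unadjusted p under 0.05; Slc17a7 at 1.94 ± 0.87 SE), and mural and meningeal markers a median of 0.49 (0 of 14 lower, 4 at that p). Their part in the result was not tested. The cocaine contrast minus the saline contrast was -0.50 ± 0.30 SE for Fos, -0.07 ± 0.23 for Fosb and -0.28 ± 0.19 for Fosl2, so these 3 genes were not shown to differ between the drugs (adjusted p = 0.506, 0.86 and 0.506, edgeR). For Btg2 that difference was -0.88 ± 0.31 SE (adjusted p = 0.506, edgeR), with medians of 3.19 CPM in Ctx_Coc and 5.12 in HC_Coc, and of 4.72 CPM in Ctx_Sal and 5.08 in HC_Sal. Over the list the median of this difference was -0.45, 6 genes had an unadjusted p under 0.05 (7.9% of all genes did, 2.71% above and 5.19% below 0), 5 of them negative (Btg2, Jun, Klf10, Nptx2 and Ptgs2) and Dusp5 positive, and 0 passed adjustment.

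In the core most estimates had the same sign. For Core Ctx_Coc against Core HC_Coc, 26 of 28 genes were lower with a median of -0.66, and 14 had an unadjusted p under 0.05 (4.18% of all genes did, 2.22% higher and 1.96% lower). Fos was at -1.13 ± 0.33 SE, Fosl2 at -0.70 ± 0.18, Nr4a1 at -0.85 ± 0.25 and Nr4a3 at -0.77 ± 0.21, none past adjustment (adjusted p = 0.449, edgeR). Taken as shell minus core, the contrast differed by 0.17 ± 0.39 SE for Fos and by 0.02 ± 0.29 SE for Nr4a3. No member of the list reached an unadjusted p under 0.05 in that difference (0 of 28, median 0.13; 0.694% of all genes did), and with errors of this size a difference comparable to the SE was not detectable. Core and shell libraries may come from the same rats, which the labels do not say. The fit behind these differences treated all libraries as independent.

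Other groups of neuronal and housekeeping genes also had lower estimates, and these moved to near 0 with the background. In bulk tissue, fewer cells of a type and less RNA per cell cannot be told apart. All 20 genes of synaptic vesicle release were lower, with a median of -0.31 and 8 at an unadjusted p under 0.05 (8.64% of all genes were lower at that p), among them Syn2, a vesicle phosphoprotein (-0.37 ± 0.14 SE), and Amph, which acts in vesicle retrieval (-0.29 ± 0.09 SE). Their median was -0.21 without HC_Coc 6-F and -0.02 with the background covariate. All 11 heat shock genes were lower (median -0.38, with Hspa5, the chaperone of the endoplasmic reticulum, at -0.40 ± 0.19 SE), and their median was -0.20 and -0.01 in those fits. The 13 protein-coding mitochondrial genes (median -0.29) moved to -0.16 and -0.01, and 87 cytosolic ribosomal protein genes, 79 of them lower (median -0.25), moved to -0.12 and 0.09.

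In the chromatin list 21 of 37 genes had an unadjusted p under 0.05, all of them lower, where 8.64% of all genes were lower at that p. Its median was -0.24 with 33 genes lower, and Kdm6b, a histone H3K27 demethylase, was at -0.39 ± 0.14 SE, and Hdac4, a histone deacetylase, at -0.16 ± 0.06 SE. The median moved to -0.14 without HC_Coc 6-F and to -0.01 with the background covariate. Glutamate receptors and their partners (22 of 28 lower, median -0.21, Grin2a at -0.31 ± 0.10 SE), GABA genes (18 of 19 lower, -0.23, Gabra2 at -0.30 ± 0.13 SE), sodium and calcium channels (20 of 20, -0.25, Cacna1g at -0.30 ± 0.12 SE) and potassium channels (22 of 22, -0.24, Kcnd2 at -0.34 ± 0.14 SE) had medians between -0.03 and 0.03 with the background covariate. The immediate early genes were at -0.26 in that fit. None of these lists had a gene past adjustment (edgeR).

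**Figure D3:**
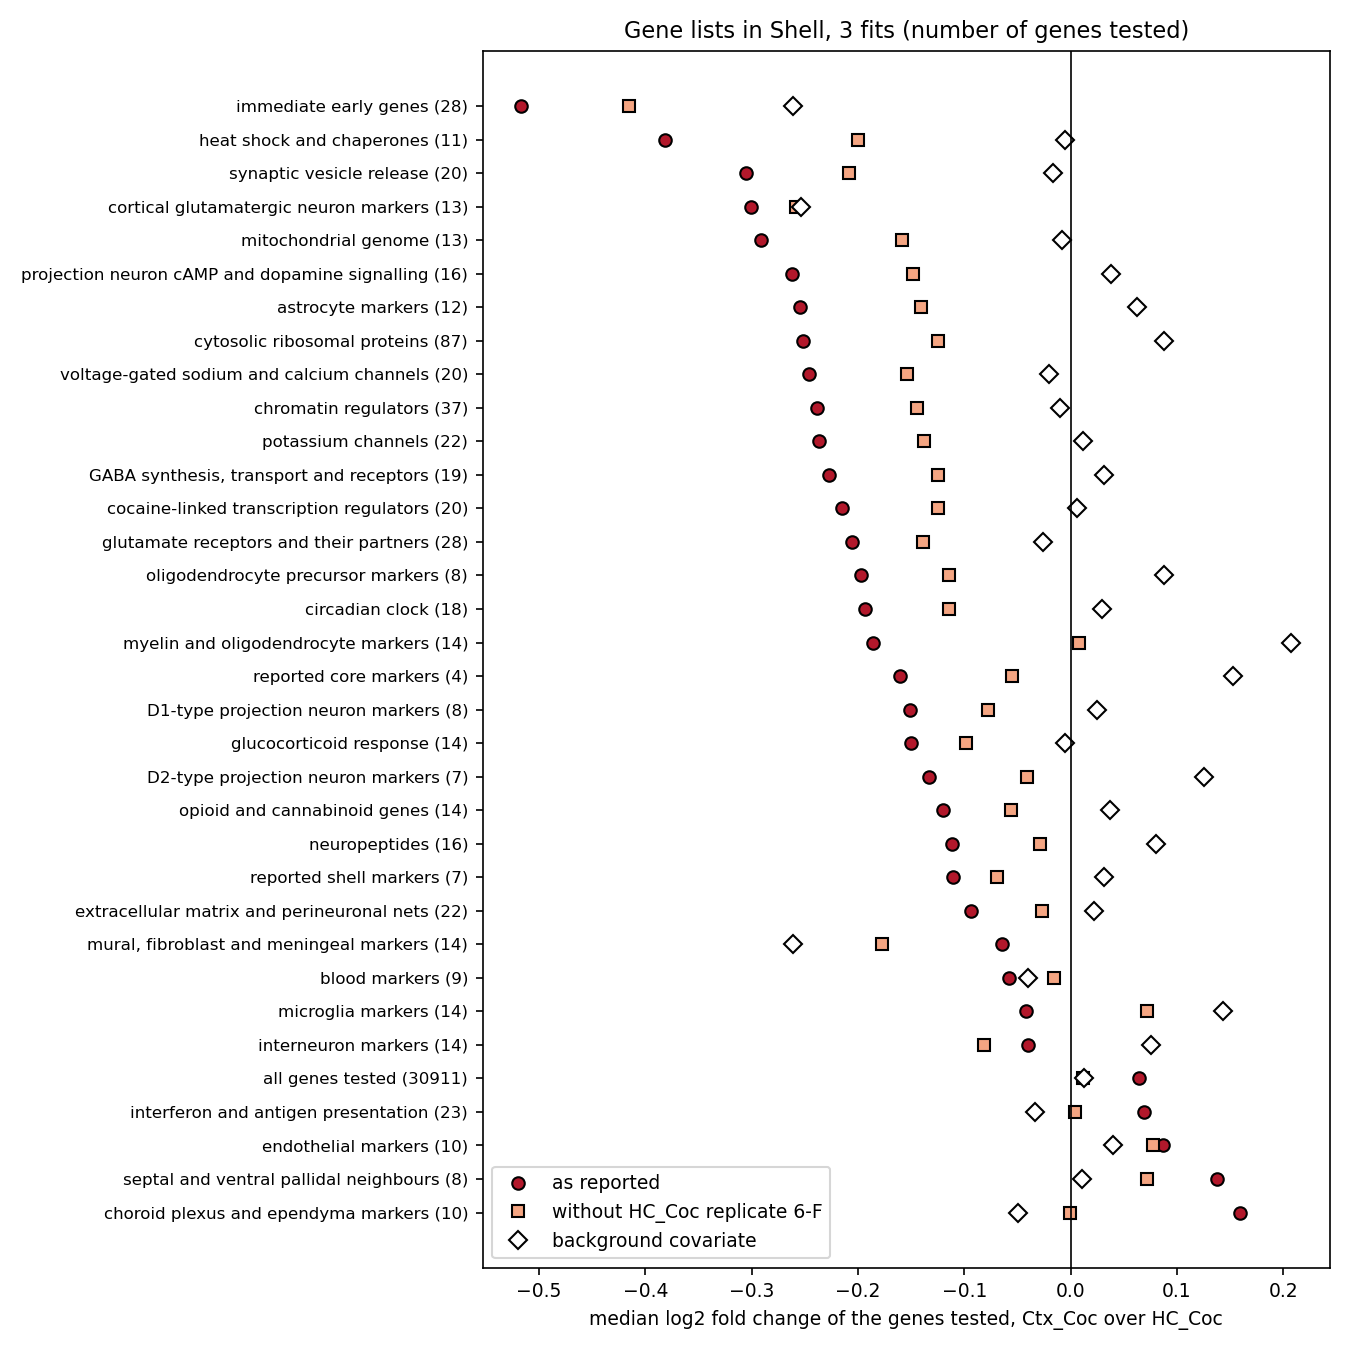
Median log2 fold change of Ctx_Coc over HC_Coc (horizontal axis) for each gene list (vertical axis, with the number of genes tested), as reported (circles), without HC_Coc 6-F (squares) and with the background covariate (diamonds). Immediate early genes are at -0.52, -0.42 and -0.26, and most other lists below 0 come close to 0 in the fit with the background covariate (heat shock genes -0.38, -0.20 and -0.01).

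Genes that define the projection neurons had no member at an unadjusted p under 0.05, where 15.9% of all genes did. With lists of 8 and 7 genes this does not set them apart. Of 8 D1-type markers 6 were lower (median -0.15; Drd1 at -0.23 ± 0.21 SE), and of 7 D2-type markers 7 were lower (median -0.13; Drd2 at -0.20 ± 0.19 SE). The lowest p among them belonged to Ebf1, a transcription factor of D1-type neurons, at 0.21 ± 0.10 SE with 6-F as the lowest HC_Coc library, and to Sp9, a factor of D2-type neurons, at -0.41 ± 0.22 SE. Pdyn, the dynorphin precursor, was at -0.08 ± 0.19 SE and Penk at -0.13 ± 0.25 SE. In the 16 genes of dopamine and cAMP signalling (median -0.26, all lower) Gnao1, a G protein subunit abundant in brain, was at -0.35 ± 0.15 SE. These 3 medians were 0.03, 0.13 and 0.04 with the background covariate. Among transcription regulators linked to cocaine (16 of 20 lower, median -0.22), Creb1 was at -0.23 ± 0.08 SE and Ntrk2, the BDNF receptor, at -0.33 ± 0.12 SE.

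Among glia, 11 of 12 astrocyte markers (median -0.25; Slc1a2, the glutamate transporter, at -0.31 ± 0.15 SE), 13 of 14 myelin markers (-0.19; Mobp at -0.25 ± 0.22 SE) and 8 of 8 oligodendrocyte precursor markers (-0.20) were lower. With the background covariate the astrocyte median was 0.06 and the myelin median 0.21, so neither list had a stable direction. Microglia markers had a median of -0.04, with Itgam, an integrin of myeloid cells, at 0.31 ± 0.15 SE and at its lowest in HC_Coc 6-F.

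Markers of neighbouring tissue varied by library. Slc17a7 had 3.76 to 18.8 CPM in Ctx_Coc, with a median of 4.98, against 1.20 to 87.3 CPM in HC_Coc, with a median of 6.10. The 3 high libraries were HC_Coc 3-8 (56.0 CPM), 3-9 (46.6) and 4-9 (87.3), and the log2 fold change of -1.44 ± 0.90 SE was -0.32 without 4-9. The 13 cortical markers together summed to 257.6 to 325.5 CPM in Ctx_Coc and 225.3 to 397.5 CPM in HC_Coc, and 11 of them were lower (median -0.30). Ptgds, a prostaglandin synthase of the meninges, reached 149 CPM in HC_Coc 4-8 and lay between 9.69 and 43.2 CPM elsewhere, with a fold change of -1.33 ± 0.80 SE and of -0.35 without 4-8. Choroid plexus markers summed to 56.4 to 67.6 CPM in Ctx_Coc, against 14.1 to 65.5 CPM in HC_Coc, where 6-F was the lowest. Their median fold change was 0.16, and 0.00 without 6-F. Septal and ventral pallidal markers had higher estimates for 6 of 8 genes, where 55.0% of all genes were higher. Their median of 0.14 was 0.07 without 6-F and 0.01 with the background covariate. Of these, 2 had an unadjusted p under 0.05, where 7.29% of all genes were higher at that p. They were Tacr1, the substance P receptor (0.24 ± 0.10 SE), and Slc17a6, the vesicular glutamate transporter of many subcortical neurons. Slc17a6 had 9.08 to 15.6 CPM in Ctx_Coc, against 7.19 to 10.1 CPM in HC_Coc, and its log2 fold change of 0.41 ± 0.14 SE lay between 0.30 and 0.51 under the alternatives run. The part of these tissues in the differences of other genes was not tested.

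Mitochondrial transfer RNA genes had the lowest estimates among named genes, most of them set by 1 or a few HC_Coc libraries. Trnd had 4.25, 5.17 and 6.21 CPM in Ctx_Coc, against 3.63, 5.71 and 324 CPM in HC_Coc, the highest value being that of 4-9. Its log2 fold change was -2.98 ± 0.70 SE, and 0.04 without that library. Trnl2 reached 201 CPM in HC_Coc 14-F and at most 6.88 CPM in every other of the 14 libraries, and its fold change of -2.15 ± 0.58 SE was -0.06 without 14-F. Trnm differed more evenly, with 34.0, 55.8 and 67.4 CPM in Ctx_Coc, against 60.1, 109 and 473 CPM in HC_Coc, and its fold change was -1.59 ± 0.35 SE and -1.24 without 6-F, the highest library.

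Over the 22 transfer RNA genes of the mitochondrial genome, the library with the highest value was an HC_Coc library for 17 genes. In 6 genes the highest library was more than 3 times the next: Trnd (4-9), Trnl2 (14-F), Trnp (3-9), Trns2 (4-8) and Trny (6-F) in HC_Coc, and Trng (4-13) in Ctx_Coc. A different HC_Coc library was thus high for each of those 5 genes. Summed over the 22 genes, the libraries held 374, 447 and 483 CPM (lowest, median and highest) in Ctx_Coc, against 494, 657 and 920 CPM in HC_Coc. These sums are scaled by total counts without TMM, unlike the CPM of single genes. The sums did not overlap, although the median of the 22 fold changes was -0.10 and 13 were below 0. This sum was formed after its genes had been seen and is given as a description. Over all genes, 75 (0.243%) had groups of 7 that did not overlap.

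**Figure D4:**
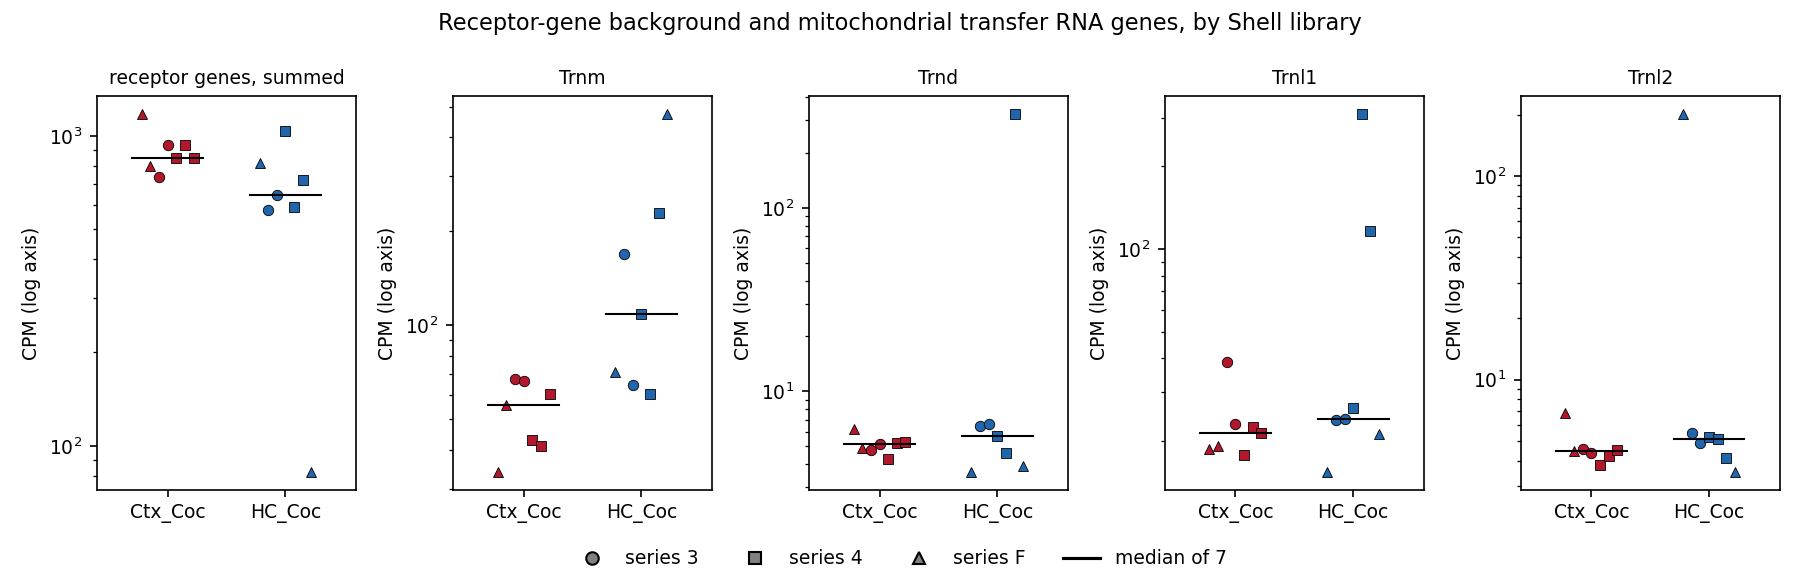
CPM (vertical axes, log scale) of the summed receptor genes and of the mitochondrial transfer RNA genes Trnm, Trnd, Trnl1 and Trnl2 in each Shell library of Ctx_Coc and HC_Coc; bars are medians of 7 libraries and symbols mark the series. HC_Coc 6-F is low for the receptor genes (82.4), and single HC_Coc libraries are high for Trnd (324) and Trnl2 (201). The receptor sum is scaled by total counts, and the transfer RNA genes by TMM library sizes.

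The other genes of lowest p included several whose libraries were separate. Lin7a, a scaffold that holds receptors at the membrane, had 63.9, 65.6 and 67.8 CPM in Ctx_Coc, against 72.4, 73.1 and 94.1 CPM in HC_Coc, with no overlap. Its log2 fold change was -0.24 ± 0.06 SE (adjusted p = 0.294, edgeR), and it ran from -0.33 to -0.17 over all settings tried. Scai, a suppressor of the serum response factor cofactor MRTF, had 48.9, 51.3 and 56.3 CPM in Ctx_Coc, against 57.1, 59.0 and 89.3 CPM in HC_Coc, again with no overlap. Its fold change was -0.28 ± 0.08 SE, and it is named for its low p in the cocaine minus saline difference. Lig4, a DNA ligase of end joining, was at -0.72 ± 0.19 SE, with 19.0 CPM in HC_Coc 6-F and overlapping groups.

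All 10 named genes of lowest p with higher estimates in Ctx_Coc had their lowest HC_Coc value in 6-F. Ndc80, a kinetochore subunit, had 6.07, 6.44 and 6.75 CPM in Ctx_Coc, against 2.08, 4.83 and 6.04 CPM in HC_Coc, and A2m, a protease inhibitor, had 11.3, 12.0 and 13.9 CPM in Ctx_Coc, against 2.89, 8.56 and 11.1 CPM in HC_Coc. The groups did not overlap for either gene, as for 40 of all 30911 genes (0.129%) in that direction, and 6-F was the lowest library for both. Ndc80 was at 0.45 ± 0.13 SE and A2m at 0.55 ± 0.17 SE (adjusted p = 0.294 for each, edgeR). Dgat2l6, an acyltransferase relative, had the highest estimate of these 10 genes (2.16 ± 0.62 SE) with 58.6 CPM in Ctx_Coc 4-13, beside 2.38 to 3.24 CPM in the other Ctx_Coc libraries, and it was 0.40 without that library. Receptor genes themselves had a median of 0.41, with 405 of 429 tested higher, and of 0.24 without HC_Coc 6-F, with 380 of 460 higher. The remaining genes with higher estimates (Aadat, Map7d3, Il1a, Tmco5a, Slc1a6, Atp6v1c2 and Cd180) lay between 0.29 and 0.53, and for each of them 6-F was the lowest HC_Coc library.

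The cocaine contrast was set against the saline contrast over all genes. No gene passed adjustment in the difference (0% called, edgeR; DESeq2 also 0), and 2441 genes (7.9%) had an unadjusted p under 0.05. The genes of lowest p in that difference were Rnd3, Tp53i11, Rcor3, Scai and Tcf4. Rnd3, an atypical small GTPase that loosens actin fibres, was at -0.40 ± 0.12 SE under cocaine and 0.28 ± 0.12 under saline, a difference of -0.68 ± 0.16 SE (adjusted p = 0.506, edgeR). Tcf4, a basic helix-loop-helix factor, was at -0.28 ± 0.08 SE under cocaine and 0.15 ± 0.08 under saline. The estimates were below 0 under cocaine and above 0 under saline for all 5 genes. Picking genes by low p in the difference favours such opposite signs. Without HC_Coc 6-F the difference was -0.56 for Rnd3 and -0.39 for Tcf4.

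Set against the core, the shell contrast differed for 0 genes past adjustment of 32145 (0% called, edgeR), and 223 (0.694%) had an unadjusted p under 0.05. The named genes of lowest p were Trnd, Trnl2, Trns2 and Trnp, whose shell values rest on the single libraries given above, and Pls1, an actin bundler, at 0.18 ± 0.09 SE in shell and -0.15 ± 0.08 in core. DESeq2 called 1 gene, the unnamed locus LOC100911193 (-3.28, adjusted p = 0.0179), which was looked at after its value was seen. It had 279 CPM in HC_Coc 6-F and 12.8 to 22.6 CPM in the other 13 shell libraries. In edgeR its estimate was -1.28 ± 0.42 SE in shell and 2.03 ± 0.61 SE in core.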

How the data were processed

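Total RNA of accumbens core and shell was extracted with a column kit and made into stranded total RNA libraries for low input, per the labels' protocols. The counts were deposited raw, as whole numbers, and were made with featureCounts on mRatBN 7.2, per the submitters' processing notes. Aligner, annotation release and strand setting: not given in the sources used here. Therefore reads of overlapping or antisense genes cannot be told apart. Near-identical copies, such as receptor genes, are uncertain. FPKM values come from the authors, and with the counts they imply 1 length per gene for 100% of 25090 genes (within 1%). These lengths were 2867 bases for Fos, 21260 for Fosl2, 50580 for Bdnf, 102939 for Homer1 and 110527 for Mbp. The long ones exceed the length of a spliced transcript, so the counts may include reads from introns. CPM and FPKM may then hold unspliced RNA or background reads as well, which was not tested. FPKM was used for levels per length only. Of 41919 genes, 29367 matched RefSeq symbols; 0 columns were left unused, and 0 pairs of libraries were identical.

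Libraries were grouped by title. Counts as deposited, 15.1 to 20.1 M per library, were filtered with filterByExpr (30911 genes in shell, 31370 in core, 32145 together), scaled by TMM and tested with edgeR 4.0.16 (R 4.3.3) by its quasi-likelihood F test (two-sided), p being adjusted by Benjamini-Hochberg with a threshold of 0.05. All 42 shell libraries entered 1 fit with the series as covariate. Differences between contrasts (cocaine minus saline, shell minus core) were tested as contrasts. CPM of single genes are scaled by TMM library sizes, and log2 CPM used a prior count of 2. Summed CPM (receptor genes, mitochondrial transfer RNA genes and marker lists) are scaled by total counts without TMM. The 2 scales differ most for HC_Coc 6-F, whose TMM factor was 0.677. The background is the log2 CPM of 1383 receptor genes. Precision is that of 7 libraries a group; no interval for counting error is given.

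On simulated counts of 30911 genes for this comparison, 30 of 50 genes changed 1.5-fold and 44 of 50 changed 2-fold were recovered. Of those changed 3-fold 49 of 50 were recovered, and of those changed 4-fold 50 of 50, with 9 false calls. These shares describe the simulated counts only. In the measured libraries Fos, at a log2 fold change of -0.97, had an adjusted p of 0.294 (edgeR). Whether the shares hold for the measured libraries, where results depended on single libraries and on the background, was not tested.

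Alternatives were DESeq2 1.42.0 (size factors, Wald test), other low-count filters, no series covariate, upper-quartile scaling, 2 surrogate variables from sva 3.50.0, the background covariate, leaving out a series, only the 14 libraries, and leaving out each library. Leaving out HC_Coc 6-F together with the background covariate, and leaving it out of the differences, were added with the data in view, as was the table of gene lists under each alternative. The members and gene lists were chosen with earlier results of these data known. Genes named are the 10 of lowest p in each direction (none passed), among symbols with a mean log2 CPM of at least 1, the 2 of lowest p in each list, and the 5 of lowest p in each difference. Other immediate early genes, the striatal markers and genes called by an alternative are named beside that rule, after their values were seen. The text names only part of the genes that meet this rule, and some are not reported here.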

Additional observations from a re-analysis of the deposited data

Results flagged for a closer look

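Values are log2 CPM unless stated. Each is the highest or lowest of a group of 7 libraries and lies farther from the nearest other library than Dixon's 95% critical value allows. Chance alone marks about 1 in 20 groups; here 46 of 190 were marked. No explanation was tested.

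HC_Coc 6-F was the library in most cases. It was the lowest of its group for the receptor background, at 6.36. It was also lowest for Dgat2l6 (-1.49), Ndc80 (1.14), Il1a (0.399), Tmco5a (0.565), A2m (1.59), Slc1a6 (2.65) and Cd180 (1.14), all genes with higher estimates in Ctx_Coc. Among cell type and signalling genes it was lowest for Ebf1 (6.06), Eya1 (3.72), Trh (2.15), Pnoc (1.93), Tnc (2.92), Itgam (2.58), Ptprc (2.56), Tek (4.12), Dcn (0.212), Clic6 (0.212), Ttr (-1.19) and Tacr1 (4.84). It was highest for the neuronal genes Gnao1 (9.65), Oprl1 (4.45), Gabra3 (6.33), Creb1 (5.29), Kdm6b (6.12), Zcchc12 (6.89), Rnd3 (4.57) and Scai (6.48). It was likewise highest for the oligodendrocyte lineage genes Gpr17 (4.67) and Olig2 (4.35), the chaperone Hspa5 (8.06), the clock gene Bhlhe40 (4.64), the mitochondrial ATP8 (10.2) and the ribosomal protein genes Rpl19 (7.69) and Rpl26 (7.15).

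Mitochondrial transfer RNA genes had a separate high library each. In Ctx_Coc these were Trnl1 in 3-14 (5.27) and Trnl2 in 18-F (2.81). In HC_Coc they were Trnd in 4-9 (8.34), Trnl2 in 14-F (7.65), Trns2 in 4-8 (6.25) and Trnp in 3-9 (7.66).

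In Ctx_Coc, Dgat2l6 was at 5.88 in 4-13, Kcnj9 at 3.10 (lowest) in 4-15, Ttr at 2.34 in 3-14 and Ptprc at 4.83 in 18-F. In HC_Coc, Cx3cr1 was lowest in 4-9, at 3.11.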

How the results depend on the processing

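No gene passed in Ctx_Coc against HC_Coc under the other filters, scalings, covariates and subsets of libraries run with edgeR, except that leaving out single libraries gave 0 to 1 called genes (LOC120099299 at 3.30, adjusted p = 0.0489, without HC_Coc 4-7). DESeq2 called 3. For shell minus core, DESeq2 and the fit with no series covariate called 1 gene each. Counts at an unadjusted p under 0.05 ran from 1117 (without HC_Coc 6-F) to 10384 (without HC_Coc 14-F), beside 4922 with all libraries, so they depend on which library is left out. No other call changed in the contrasts of saline rats, of the core and of cocaine minus saline.

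Of 92 named genes, 82 kept their direction with the background covariate or 2 surrogate variables. The cause was not tested for those that turned. In those fits (background covariate, 2 surrogate variables, and the background covariate without HC_Coc 6-F) the log2 fold changes were -0.0341, -0.0386 and -0.0346 for Eya1, 0.0707, 0.0614 and 0.0461 for Gpr52, 0.0164, 0.0133 and 0.009 for Gja1, and 0.0508, 0.0626 and 0.0553 for Ugt8. They were 0.1923, 0.186 and 0.1771 for Mobp, 0.0832, 0.0717 and 0.0583 for Gpr17, 0.0924, 0.0863 and 0.0579 for Olig2, and -0.0071, -0.0031 and -0.0053 for Tek. For Zcchc12 they were 0.0711, 0.0787 and 0.0596, and for Calb1 0.0168, 0.0229 and 0.0138. Without series 4, Trnd was at 0.0786, Trnl1 at 0.2029 and Trns2 at 0.2237. Without series 3, Calb1 was at 0.004 and Trnp at 0.0369. Leaving out single libraries moved Trnd between -3.28 and 0.04 and Trns2 between -1.24 and 0.0919. In the remaining settings 92 of 92 kept their direction.

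No paired analysis was possible because Ctx_Coc and HC_Coc share no library numbers within the shell. Shell and core do share numbers, and the correlation of same-numbered deviations ran from 0.0468 to 0.713 over 30 pairs (27 above 0.1, 20 of 30 best with their own number). The median was 0.33 for these pairs, against -0.0101 for shell and core libraries of different number. Shell minus core with the replicate block called 0 genes, with 148 at an unadjusted p under 0.05.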
